A study of Mus musculus with 16 samples.

Results

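Macrophage marker transcripts were examined in cultures of small intestinal myofibroblasts from mice. The 10 genes were chosen by name, as Ptprc, Cd68, Adgre1, Csf1r, Cd14, Lyz2, C1qa, C1qb, C1qc and Tyrobp, from 22180 genes with a single symbol, and each was read by 1 probe set on the array. They were chosen because earlier work on the same values had shown them high in the fibroblast cultures, so the contrast of fibroblasts with epithelium is given as a description and carries no test. All 10 passed the filter on dim genes, which kept 18095 genes.

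The groups used were C57Bl/6 wild-type fibroblasts co-cultured with organoids (n = 3 animals, Pl_I, Pl_II and Pl_III), fibroblasts in monoculture (n = 3, the same animals), adenoma cells of Apc+/1638N mice (n = 4 animals on 6 arrays), wild-type epithelial organoids co-cultured with myofibroblasts (n = 2 animals, P28 and P30) and epithelial organoids in monoculture (n = 2, the same animals). All animals were labelled male and were 8 to 10 weeks old. In co-culture the myofibroblasts sat on an insert with 0.4 µm pores above the organoids for 24 h. Adenoma animals P21 and P34 had 2 arrays each, which were averaged, titles of P21 and P23 alone carry the unexplained mark T2, and the labels name no sort of the fibroblasts by a surface protein. Apc+/1638N mice carry 1 mutant copy of Apc, which restrains Wnt signalling.

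Macrophages are phagocytes of the innate immune system, and the gut wall holds a large resident population of them beneath the epithelium. Their survival depends on the receptor Csf1r, whose ligand Csf1 is made by stromal cells. They take up bacteria and dead cells, sense lipopolysaccharide through Cd14, and are a main source of the complement protein C1q.

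The samples differed in ways that touch the results below. The array of the Pl_III monoculture names Pl_II in its source label and Pl_III in its title, and the title was followed. Xist, the RNA that silences an X chromosome in females, was at 8.29 in the co-culture and 8.25 in the monoculture of Pl_III, against 1.87 to 2.25 in the other 4 fibroblast cultures (log2 levels). Eif2s3y, a gene of the Y chromosome, was at 3.20 and 2.53 in those Pl_III cultures, against 7.93 to 8.18 in the others. These levels go against the male label for Pl_III, and both organoid cultures of P28 showed the same pattern (Xist at 7.57 in co-culture and 8.04 in monoculture). The median difference from epithelium and the C1qc difference in co-culture are therefore also given without Pl_III. The shares between animals given below were not computed without it.

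The cultures carried fibroblast genes at high levels. Of 11 fibroblast genes tested, 11 were at least 1 log2 unit higher on average in the 6 fibroblast cultures than in the 4 epithelial samples, with the collagen chain gene Col1a1 at 12.41 against 3.96 and the proteoglycan gene Dcn at 12.44 against 2.90. Smooth muscle and myofibroblast genes were higher for 8 of 10, with the actin gene Acta2 at 12.996 against 5.09. Epithelial genes were lower for 12 of 12, with the keratin gene Krt8 at 4.20 against 12.39. So the fibroblast label fitted its markers. Epithelial markers were low in these cultures, with a list mean between 3.17 and 3.64, though Krt19 reached 5.05.

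All 10 macrophage markers were higher in every fibroblast culture than in every other sample, as were 15.4% of all genes tested. Levels are log2 probe set values throughout, and levels of different genes are not compared, because probe sets differ in how they bind. The differences of means between fibroblasts and epithelium lay between 3.18 log2 units for Cd14 (9.04-fold) and 6.30 for Adgre1, with a median of 5.02 against -0.03 over all genes tested. Adgre1 averaged 2.73 in epithelium, beside the 2.67 above which genes were kept, so its difference is a lower bound, and most other markers were also low there. Across all 6 cultures the markers lay between percentiles 69 and 98.6 of all probe sets of the same sample. The gap between the lowest fibroblast culture and the highest other sample was smallest for Cd14 (0.97). Without Pl_III the median difference was 4.79. In these bulk RNA samples, a greater number of cells with a transcript and more of it per cell cannot be told apart. Which cells of the cultures carried the transcripts was not measured.

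Ptprc, the phosphatase CD45 found on the surface of nucleated blood cells, was at 7.59, 7.35 and 8.59 in the co-cultures of Pl_I, Pl_II and Pl_III, and at 8.03, 7.32 and 8.76 in their monocultures. The adenoma samples were at 3.06 to 3.40, and the epithelial samples at 2.90 and 3.04 in co-culture and at 2.87 and 2.86 in monoculture. The fibroblast values stood at least 3.92 above all others, and the Pl_III cultures were the highest in both conditions.

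Adgre1, which encodes the adhesion receptor F4/80 used to identify mouse macrophages, was at 9.37, 8.84 and 8.996 in the co-cultures, and at 8.96, 9.13 and 8.94 in the monocultures. It was at 2.29, 2.29, 2.33 and 2.93 in adenoma animals P21, P23, P34 and P36, and at 2.48 and 2.38 in co-cultured epithelium and 3.13 and 2.94 in epithelium alone. The 6 fibroblast values spanned only 0.53, the co-culture and monoculture values overlapped, and no animal stood apart.

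Csf1r, the receptor for the growth factors Csf1 and Il34, was at 9.21, 8.78 and 9.64 in the co-cultures and at 9.63, 8.96 and 9.71 in the monocultures. All other samples were between 3.40 and 3.95. Pl_II had the lowest value in both conditions. Csf1 itself was at 11.55 to 11.93 in the fibroblast cultures, against 5.86 to 6.79 in adenoma cells and 3.76 to 4.65 in epithelium, while Il34 was at 4.17 to 5.42 in the fibroblast cultures, against 3.79 to 6.98 in adenoma and 4.46 to 5.99 in epithelium. Of 12 genes for Csf1r ligands and other myeloid growth factors, receptors and regulators, 8 were at least 1 log2 unit higher and 2 lower in fibroblasts than in epithelium.

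Cd14, the co-receptor that hands lipopolysaccharide to Tlr4, was at 10.58, 9.91 and 9.90 in the co-cultures and at 10.23, 9.91 and 9.63 in the monocultures. It was at 8.43, 8.56, 8.66 and 7.94 in the adenoma animals, and at 7.13 and 6.99 in co-cultured epithelium and 6.51 and 6.77 in epithelium alone. Cd14 had the smallest difference of the 10 between fibroblasts and the other groups. Its 5 groups kept the order fibroblasts, adenoma, co-cultured epithelium, epithelium alone, with overlap between the fibroblast groups alone.

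Tyrobp, the adaptor DAP12 that carries the signal of receptors such as Trem2, was at 8.20, 7.62 and 8.33 in the co-cultures and at 7.43, 7.39 and 8.30 in the monocultures. All other samples were between 3.00 and 3.68. Of 13 tested genes for Tyrobp-linked receptors and related signalling proteins, 10 were at least 1 log2 unit higher in fibroblasts than in epithelium and 0 lower. Over all genes tested, 17.4% were higher and 13.5% lower by that much. Among them were Fcer1g, the signalling chain of Fc receptors, at 10.86 against 3.78, and Trem2, a lipid-sensing receptor, at 7.55 against 3.04.

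Cd68, a glycoprotein of the lysosomes of phagocytes, was at 10.35, 10.44 and 10.86 in the co-cultures and at 10.52, 10.17 and 10.59 in the monocultures. It was at 6.76, 6.29, 6.79 and 5.92 in the adenoma animals, at 5.24 and 5.01 in co-cultured epithelium and at 3.98 and 4.20 in epithelium alone. No value of 1 group reached into the next below the fibroblast groups.

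Lyz2, the lysozyme of myeloid cells, was at 9.36, 9.36 and 9.63 in the co-cultures and at 9.15, 9.44 and 9.55 in the monocultures. It was at 4.19, 4.48, 3.00 and 2.62 in adenoma animals P21, P23, P34 and P36, and between 4.08 and 4.70 in epithelium. Lyz2 lies next to its near-identical copy Lyz1, the lysozyme of Paneth cells, and probes for either could bind both. Lyz1 ran the other way, at 5.25 to 5.76 in the fibroblast cultures against 11.41 to 11.84 in epithelium. In adenoma it was at 11.75 in P21 and 12.20 in P23, and at 3.20 in P34 and 2.72 in P36, so the animals with the lower Lyz2 were those with the lower Lyz1, and a part of shared probes in that was not tested. The titles of P21 and P23 carry T2, which the labels do not explain, and those of P34 and P36 do not.

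C1qa, C1qb and C1qc encode the 3 chains of C1q, which starts the classical complement pathway. C1qa was at 7.63, 7.53 and 9.34 in the co-cultures of Pl_I, Pl_II and Pl_III, and at 6.79, 8.06 and 9.40 in their monocultures. C1qb was at 9.14, 9.09 and 10.55 in the co-cultures, and at 8.43, 9.61 and 10.68 in the monocultures. C1qc was at 5.54, 5.87 and 8.35 in the co-cultures and at 5.38, 6.39 and 7.55 in the monocultures. In each of the 3 genes both Pl_III cultures were above all 4 others. Outside the fibroblasts C1qa was at 3.43 to 4.20, C1qb at 2.84 to 3.64 and C1qc at 2.79 to 3.28, and neighbouring groups overlapped in each of the 3 genes.

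**Figure D1:**
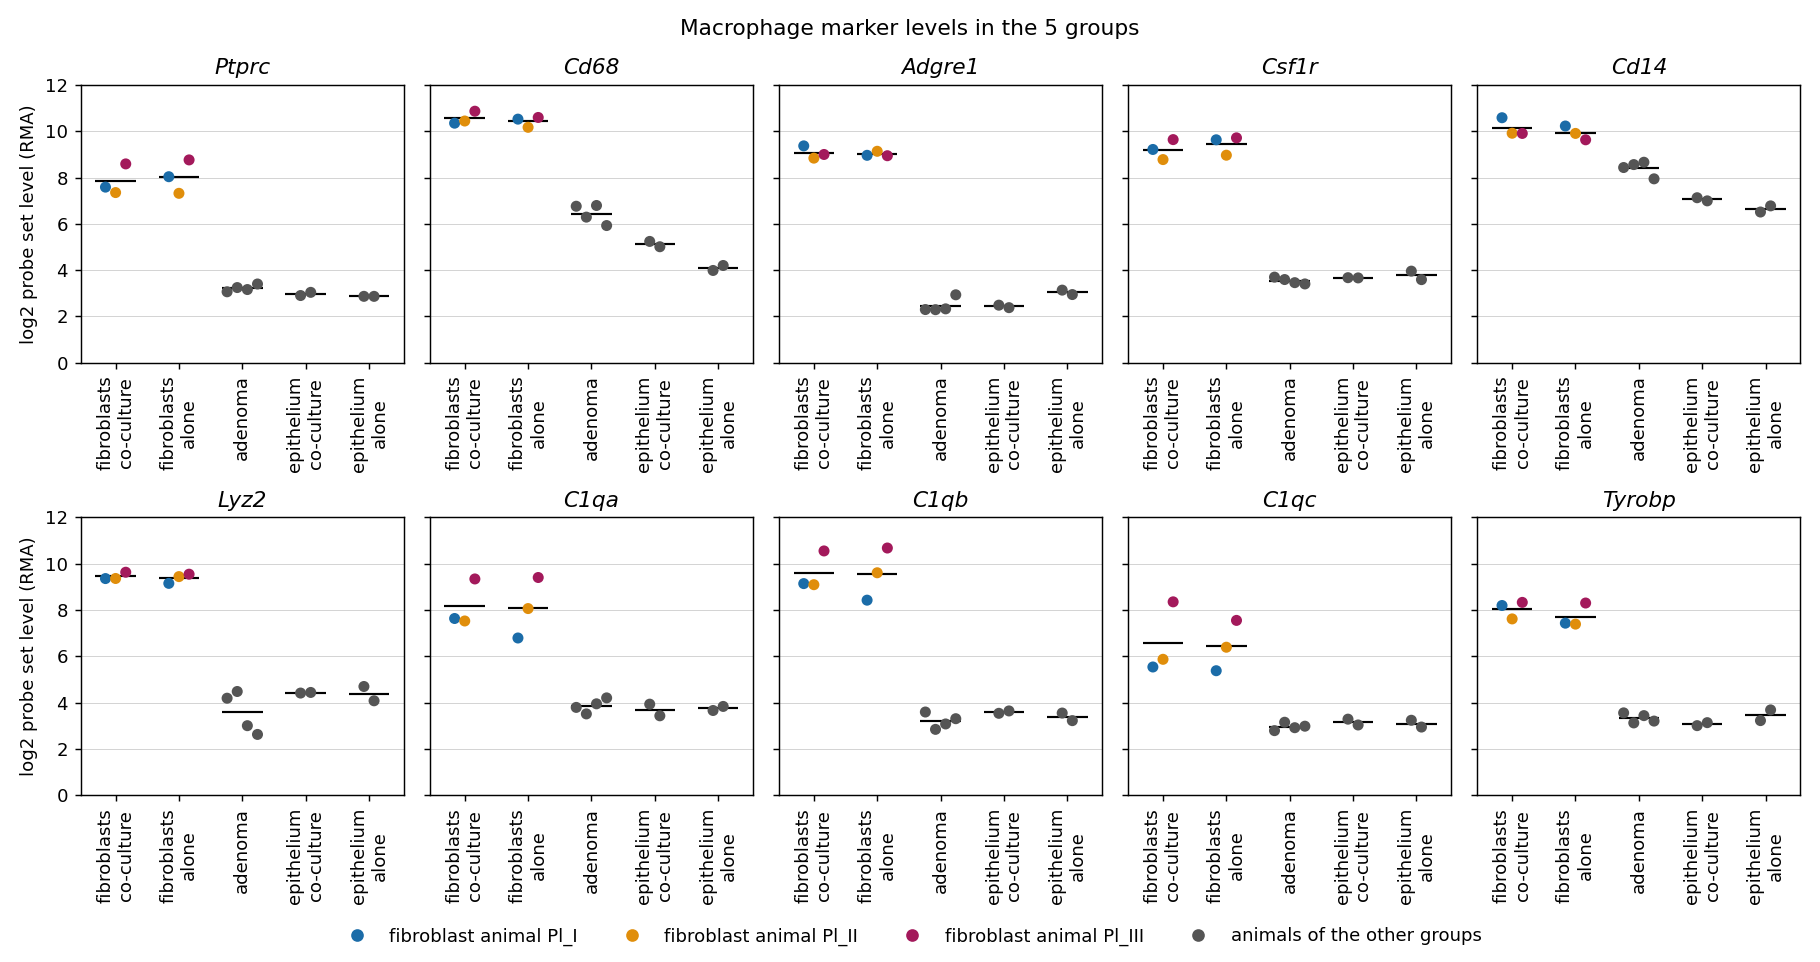
Log2 probe set level (vertical axis) of each macrophage marker in each biological sample, by group (horizontal axis). Points are animals, with fibroblast animals in colour, and black lines are group means. All 6 fibroblast points lie above every other sample in all 10 panels, Cd68 and Cd14 have intermediate adenoma values, and the Pl_III points stand highest for C1qa, C1qb and C1qc.

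Other leukocyte lists showed which immune genes went with these markers. Of 22 other macrophage genes tested, 17 were at least 1 log2 unit higher on average in fibroblast cultures than in epithelium and 2 lower, against 17.4% higher and 13.5% lower over all genes tested. The mean level of the list lay between 6.27 and 6.77 in co-cultured fibroblasts and between 6.17 and 6.73 in fibroblasts alone, against 3.04 to 3.10 in adenoma and 3.58 to 3.76 in epithelium. Cybb, the catalytic subunit of the phagocyte oxidase, was at 11.12 against 2.29, Mpeg1, a pore-forming protein of macrophages, at 9.23 against 2.61, and the integrin gene Itgam at 8.93 against 4.88. The cysteine protease gene Ctss was also high in epithelium (9.89 in fibroblasts against 8.61). The genes that were lower were Mertk and Lyve1. Like the other genes named below as making up a small count, they were picked out after their values were seen. Some macrophage genes stayed near the floor in the fibroblast cultures: Cd163 was at 2.85 to 3.25, Timd4 at 2.01 to 2.63, Vsig4 at 1.62 to 1.87 and Gpr34 at 2.07 to 2.51. The filter left out Timd4, Vsig4 and Gpr34, so the 22 tested genes, of 25 on the array, do not include them. A gene passed the filter through the group where it was highest, which favours high genes in such counts.

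Genes shared by all leukocytes were higher in fibroblasts than in epithelium for 16 of 16, with the tetraspanin gene Cd53 at 10.26 against 2.90, the integrin gene Itgb2 at 9.41 against 3.21 and the GTPase gene Rac2 at 10.62 against 5.30. In lists of other blood cell types a smaller share of genes was higher, and the difference between lists was not tested. B cell genes were higher for 0 of 5. Mast cell genes were higher for 0 of 5 and lower for 2, Kit (3.20 against 5.94) and Mcpt2. Cd79a, a chain of the B cell receptor, was at 2.75 in fibroblasts against 2.92 in epithelium. T cell genes were higher for 2 of 7, namely Il7r (4.98 against 1.94) and Cd28. The T cell receptor chain gene Cd3e, which the filter left out of the 7, was at 2.16 to 2.92 in the fibroblast cultures. Neutrophil genes were higher for 2 of 10, namely Mmp8 (4.79 against 2.69) and S100a8 (3.66 against 2.04). Dendritic cell genes were higher for 2 of 8, namely Cd209a and Itgax.

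The monocyte list was higher for 3 of 6, which were Fn1, Vcan and Itga4, genes that fibroblasts can also express. Ccr2, the chemokine receptor of inflammatory monocytes, was at 2.01 to 2.19 in the fibroblast cultures, and the filter left it out of the 6. Endothelial genes were higher for 0 of 10, and genes of enteric glia and neurons for 2 of 7, Tubb3 and Uchl1. Of 5 tested alternative activation genes 2 were higher, Arg1 (5.74 against 3.53) and Cd209a. Chil3 was at 1.77 to 1.98 and Retnla at 1.39 to 1.92 in the fibroblast cultures, and the filter left both out of the 5. Of 17 complement genes outside C1q, 9 were higher and 3 lower, with Cfp, which stabilises the alternative pathway convertase, at 9.13 against 4.35 and C3ar1, the receptor of C3a, at 7.92 against 3.29. Of 16 genes for lipopolysaccharide sensing and its early targets, 10 were higher and 1 lower, with Il1b at 9.76 against 2.82, Tnf at 10.14 against 5.24 and Ptgs2 at 12.00 against 2.90.

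**Figure D2:**
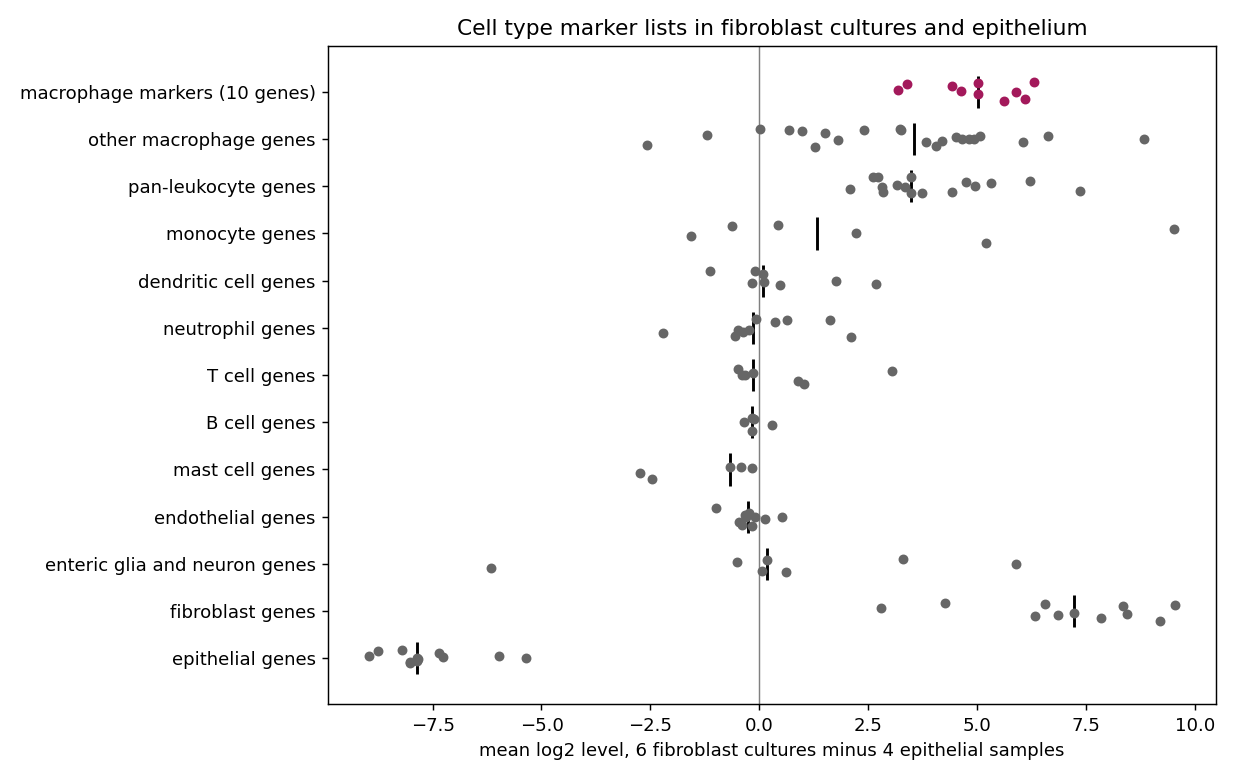
Difference of mean log2 level between the 6 fibroblast cultures and the 4 epithelial samples (horizontal axis) for the tested genes of each list (rows). Points are genes, shifted up or down at random for visibility, and black bars are list medians. Macrophage, leukocyte and fibroblast genes lie mostly to the right, though some other macrophage genes lie near or below 0. B cell, T cell and endothelial genes lie mostly around 0, 2 of 5 mast cell genes lie below -1, and epithelial genes lie to the left.

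The genes most like the markers over all 14 samples were found by the root mean square of the difference between a gene's centred level and the mean centred level of the 10 markers. They were Dab2 (0.20), Fermt3 (0.24), Fstl3 (0.24), Ms4a7 (0.25), Armcx2 (0.26), Clec12a (0.27), Akap2 (0.28) and Klhl38 (0.29). The median over all genes tested was 2.46, and the 10 markers themselves lay between 0.24 (Ptprc) and 1.38 (Cd14). Dab2, an endocytic adaptor, was at 8.50 in fibroblasts, 3.58 in adenoma and 3.47 in epithelium. All 8 genes differed mainly between the fibroblasts and the rest, which is the contrast that also chose the markers.

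Whether contact with epithelial factors changed the markers in fibroblasts was asked by comparing co-culture with monoculture. None of the 10 passed the test in limma (0 of 10, adjusted p = 1 for each, lowest unadjusted p = 0.216 for Tyrobp), where 0.00553% of all genes did. Only Mfap4, a microfibril protein gene, was called among 18095 genes, at 3.35 in co-culture against 4.40 in monoculture (log2 difference -1.06 ± 0.12 SE, adjusted p = 0.0401), and 513 genes had an unadjusted p under 0.05. The marker differences ran between -0.23 for Csf1r and 0.34 for Tyrobp, 8 above 0 and 2 below, with a median of 0.08 against 0.0034 over all genes. With animals as a replicate block 0 genes were called, 1352 had an unadjusted p under 0.05, and the lowest p of a marker was 0.0807 (Tyrobp).

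The intervals of these differences were narrow for some markers and wide for others. The 95% interval ran between -0.35 and 0.46 for Adgre1 (difference 0.06 ± 0.19 SE), between -0.38 and 0.63 for Cd68 (0.12 ± 0.23) and between -0.30 and 0.72 for Cd14 (0.21 ± 0.23). For the C1q genes it was widest, between -1.27 and 1.56 for C1qc (0.15 ± 0.65), so that a change of 1 log2 unit either way lay within it. With the animals as a replicate block the interval for C1qc was narrower, between -0.41 and 0.70, and it ran between -0.56 and 0.72 for C1qa and between -0.53 and 0.58 for C1qb, which leave out a change of 1 log2 unit. A missed threshold therefore does not show equal levels in both cultures.

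The animals did not move alike. Co-culture minus monoculture of the 10 markers had a median of 0.28 in Pl_I, -0.14 in Pl_II and 0.04 in Pl_III. C1qa differed by 0.84 in Pl_I, -0.54 in Pl_II and -0.06 in Pl_III, and C1qb by 0.72, -0.52 and -0.13 in the same animals. C1qc differed by 0.16, -0.52 and 0.80. Within Pl_II all 3 C1q genes were lower in co-culture by nearly the same amount, while Pl_I had all of them and Pl_III only C1qc above 0. Cd14 and Tyrobp were higher in co-culture in 3 of 3 animals, and Csf1r was lower in 3 of 3. Tyrobp differed by 0.76, 0.23 and 0.03 and Csf1r by -0.42, -0.19 and -0.08, in Pl_I, Pl_II and Pl_III. Without Pl_III the C1qc difference was -0.18 in place of 0.15.

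**Figure D3:**
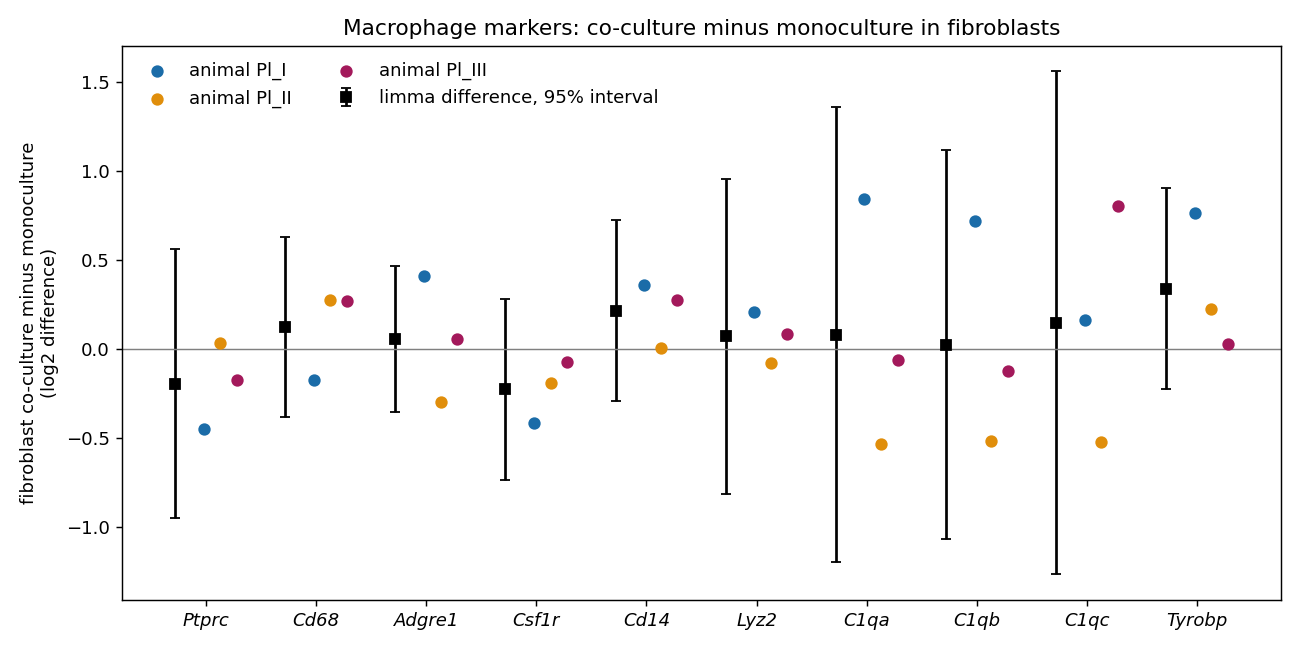
Log2 difference between co-culture and monoculture of fibroblasts (vertical axis) for each macrophage marker (horizontal axis). Coloured points are the 3 animals, and black squares with bars are the limma difference with its 95% interval (n = 3 against 3). Every interval includes 0, and the C1q points scatter most between animals.

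Of all 19 other lists, 0 genes were called in fibroblast co-culture. The median difference was 0.06 for the other macrophage genes, 0.02 for the leukocyte genes, 0.31 for the lipopolysaccharide sensing genes and -0.03 for the cell cycle genes. Of the 16 lipopolysaccharide sensing genes, 7 were higher in co-culture in 3 of 3 animals and 0 lower, against 15.3% and 14.1% of all genes tested. Among these 7, Nos2, the inducible nitric oxide synthase, differed by 1.45 in Pl_I, 1.92 in Pl_II and 0.97 in Pl_III, Tlr4, the lipopolysaccharide receptor, by 0.41, 0.44 and 0.21, and Tnf by 0.25, 0.31 and 0.57. They were picked out after their values were seen.

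Levels differed more between animals than between cultures. The animal accounted for a median of 83.9% of the sum of squares of a marker over the 6 fibroblast cultures and the culture for 4.09%, against 59.6% and 8.11% over all genes tested. The share between animals was above 50% for 9 of 10 markers, and it was 94.1% for Ptprc, 93.4% for C1qc, 90.9% for C1qa and 89.9% for C1qb. Adgre1 was the exception at 26.6%. These shares describe 3 animals, and no test was made between them. There are more animals than culture conditions, which by itself raises the share of the animal, and the shares are not adjusted for this. They include Pl_III, which stood apart for some markers, and were not computed without it.

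Pl_III stood apart for the C1q genes. Its mean of both cultures minus the mean of Pl_I and Pl_II was 2.16 for C1qc, 1.87 for C1qa, 1.55 for C1qb and 1.10 for Ptprc. So 4 of 10 markers were at least 1 log2 unit higher in Pl_III and 0 lower, against 2.40% of all genes higher and 3.60% lower. The difference was 0.66 for Tyrobp, 0.53 for Csf1r, 0.36 for Cd68 and 0.26 for Lyz2, and it was -0.11 for Adgre1 and -0.39 for Cd14. C1qc was at 7.95 in Pl_III, against 5.46 in Pl_I and 6.13 in Pl_II (means of both cultures). Adgre1, Cd14, Lyz2 and Cd68 in Pl_III thus lay within 0.39 of the mean of Pl_I and Pl_II in either direction, while the 3 C1q genes differed from it by over 1 log2 unit. Under another normalization between arrays (cyclic loess) the differences were 2.16 for C1qc, 1.89 for C1qa and 1.57 for C1qb.

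Other macrophage genes split in the same comparison, and the genes named here were picked out after their values were seen. Of 22 tested, 7 were at least 1 log2 unit higher in Pl_III and 2 lower. Higher were Cx3cr1, the fractalkine receptor (6.81 in Pl_III, 3.12 in Pl_I and 3.87 in Pl_II), Fcgr1, a high-affinity Fc receptor (6.42, 4.79 and 4.31), and Trem2 (8.72, 7.04 and 6.88). Mertk, a receptor for dying cells, Aif1, Marco and Ms4a7 were also higher. Lower were the platelet factor gene Pf4 (6.54 in Pl_III, 8.77 in Pl_I and 8.29 in Pl_II) and Clec7a, a receptor for fungal glucans (7.27, 8.06 and 8.51). Of the 13 Tyrobp-linked genes, 4 were higher by at least 1 and 0 lower, and of 16 leukocyte genes 0 were higher and 0 lower, with a median of 0.30.

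Lists outside the macrophage genes moved between the same animals. Lipopolysaccharide sensing genes were at least 1 log2 unit lower in Pl_III for 6 of 16, and these were Lbp, Il1b, Tnf, Il6, Cxcl2 and Nos2 (Nos2 at 4.24 in Pl_III, against 7.46 in Pl_I and 6.66 in Pl_II). Complement genes outside C1q were lower for 5 of 17 and higher for 2 of 17, with Serping1, the C1 inhibitor, at 6.12 in Pl_III against 10.09 in Pl_I and 10.27 in Pl_II, and the complement regulator gene Cd59a at 10.13 against 7.95 and 7.35. Cell cycle genes were lower for 8 of 11, with Mki67 at 7.57 against 9.29 and 8.68, and smooth muscle genes were higher for 4 of 10. Of 11 fibroblast genes 1 was lower, Pdgfra, at 7.67 against 11.31 and 11.25, and 1 higher, Fap, at 6.43 against 4.07 and 5.51, with a list median of 0.11. The sex genes named above differ between the same animals. The part of any of these in the C1q difference was not tested, and with 1 animal on one side the differences cannot be told apart from the animal itself.

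**Figure D4:**
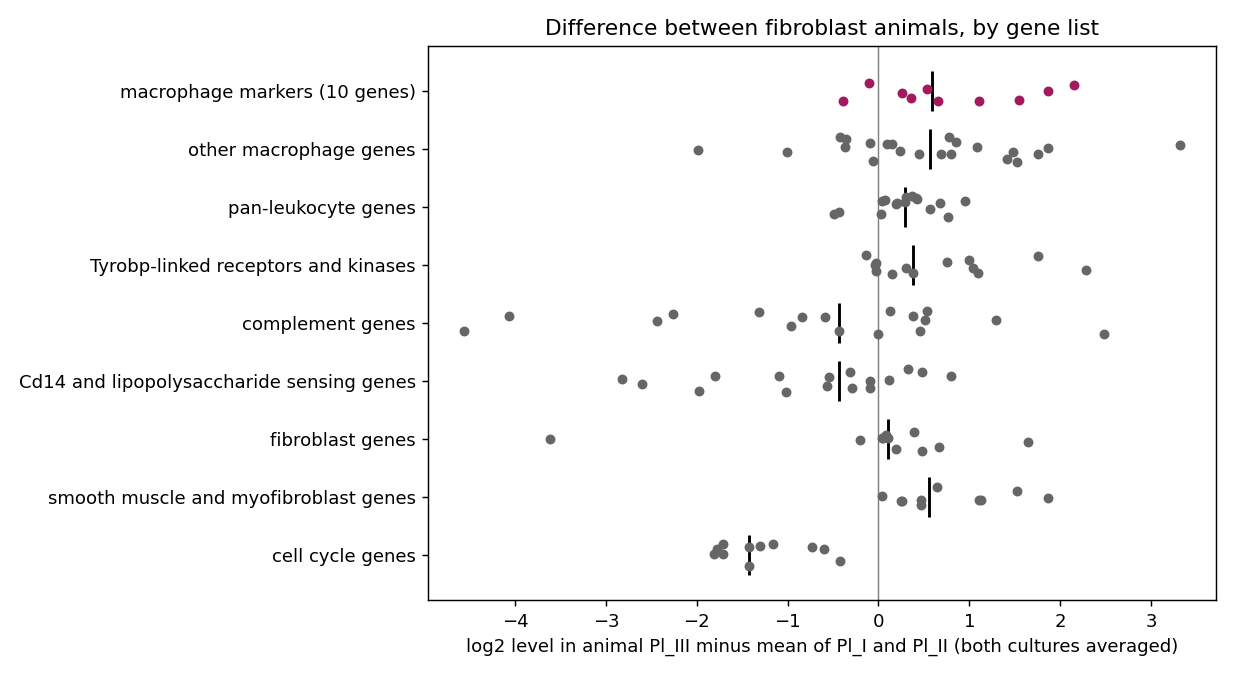
Log2 level in Pl_III minus the mean of Pl_I and Pl_II, averaged over both cultures (horizontal axis), for the tested genes of each list (rows). Points are genes, shifted up or down at random for visibility, and black bars are list medians. The macrophage markers reach 2.16 with 8 of 10 above 0, cell cycle genes lie below 0, and complement genes spread to both sides.

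Of the 5 markers with a promoter sequence in the table used, those with the largest spread between animals (C1qc and C1qb) and the smallest (Lyz2 and Cd68) are shown. C1qb, C1qc and C1qa lie next to each other on the chromosome in that order. The windows are from RefSeq on GRCm38.p6, 250 bases before to 50 bases after the start of each gene, on the minus strand and written 5′ to 3′ in the direction of transcription: chr4:136886151-136886450 for C1qb, chr4:136892865-136893164 for C1qc, chr10:117282223-117282522 for Lyz2 and chr11:69666121-69666420 for Cd68. Capitals mark AGGAAG or its reverse complement CTTCCT, which hold GGAA or TTCC at their centre. They are 1 form of the sites bound by ETS factors such as PU.1, the master regulator of myeloid cells encoded by Spi1. Other forms with GGAA were not marked or counted.
C1qb: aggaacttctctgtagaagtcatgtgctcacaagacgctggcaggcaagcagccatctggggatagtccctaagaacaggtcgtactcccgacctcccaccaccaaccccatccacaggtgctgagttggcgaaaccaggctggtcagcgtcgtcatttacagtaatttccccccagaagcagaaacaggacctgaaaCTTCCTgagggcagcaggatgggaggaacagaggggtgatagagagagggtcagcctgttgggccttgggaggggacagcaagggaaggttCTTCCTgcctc
C1qc: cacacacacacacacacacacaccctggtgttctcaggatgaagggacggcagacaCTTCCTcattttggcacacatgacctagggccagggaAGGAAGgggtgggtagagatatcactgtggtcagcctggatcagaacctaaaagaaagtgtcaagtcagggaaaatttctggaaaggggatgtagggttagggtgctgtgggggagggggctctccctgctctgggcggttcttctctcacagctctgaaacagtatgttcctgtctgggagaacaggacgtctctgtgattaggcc
Lyz2: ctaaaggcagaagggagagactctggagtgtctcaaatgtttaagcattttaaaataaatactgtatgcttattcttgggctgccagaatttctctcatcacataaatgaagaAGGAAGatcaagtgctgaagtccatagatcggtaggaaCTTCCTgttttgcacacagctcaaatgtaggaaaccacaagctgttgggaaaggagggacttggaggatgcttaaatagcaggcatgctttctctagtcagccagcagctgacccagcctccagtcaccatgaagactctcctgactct
Cd68: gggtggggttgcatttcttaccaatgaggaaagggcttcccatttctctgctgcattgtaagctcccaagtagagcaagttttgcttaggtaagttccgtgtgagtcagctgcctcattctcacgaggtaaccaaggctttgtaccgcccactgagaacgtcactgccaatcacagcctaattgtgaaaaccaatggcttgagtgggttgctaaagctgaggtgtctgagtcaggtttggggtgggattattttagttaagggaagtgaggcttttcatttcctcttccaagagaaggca
C1qb, C1qc and Lyz2 each held 2 matches and Cd68 held 0, and the matches do not overlap. The Cd68 window does hold the shorter GGAA in unmarked places, so 0 matches does not mean that it lacks ETS-like letters. Of all 32851 promoter windows in the table, 35.4% held at least 1 match on either strand and 8.6% held at least 2. Of the 5 markers with a window used here 4 held a match, Ptprc among them, which has 2 windows with 3 matches and 1 match. The motif was chosen with these genes in view, and a match is a description of the letters. Spi1 itself was at 6.00 to 6.65 in the fibroblast cultures, against 3.05 to 3.47 in adenoma and 2.55 to 3.53 in epithelium.

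In epithelium, co-culture with myofibroblasts left 0 of 10 markers called in limma, where 4.03% of all genes were called (490 or 2.71% higher and 239 lower). Cd68 was closest, at 5.24 and 5.01 in co-culture against 3.98 and 4.20 in monoculture, a difference of 1.03 ± 0.28 (SE, 2.05-fold, adjusted p = 0.07), higher in 2 of 2 animals. With animals as a replicate block Cd68 passed, at the same difference (adjusted p = 0.0179), and the number of genes called was 1922. Over all alternatives its adjusted p lay between 0.0179 and 0.615. Adgre1 differed by -0.61 ± 0.23 (adjusted p = 0.192), lower in 2 of 2 animals, and Cd14 by 0.42 ± 0.29 (adjusted p = 0.531), higher in 2 of 2. The other 7 markers differed by between -0.38 and 0.20. The median was 0.05 against -0.02 over all genes.

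Other macrophage genes in the co-cultured epithelium included 1 called gene of 22, Mrc1, a mannose receptor, at 6.25 and 5.69 in co-culture against 4.64 and 4.62 in monoculture (adjusted p = 0.025 in limma). Of 16 leukocyte genes 1 was called, the lysosomal membrane gene Laptm5 (difference 1.26 ± 0.25, adjusted p = 0.0165). Both were named after their values were seen. Ptprc, Csf1r, Tyrobp and the C1q genes stayed between 2.86 and 3.95 in all 4 epithelial samples.

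The difference between the responses of fibroblasts and epithelium was tested as an interaction. Here 0 of 10 markers passed, against 1.11% of all genes (200 genes, of which 151 were lower, 0.834% of all genes, and 862 with animals as a replicate block). Cd68 differed by -0.91 ± 0.37 (adjusted p = 0.311), Tyrobp by 0.72 ± 0.41 (adjusted p = 0.519) and Adgre1 by 0.66 ± 0.30 (adjusted p = 0.381), and the median of the 10 was -0.05 against 0.03 over all genes. With animals as a replicate block in limma, Cd68 came closer (adjusted p = 0.0802), and the adjusted p was 0.17 for Tyrobp and 0.168 for Adgre1. So a response of Cd68 particular to epithelium was not shown in either fit.

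Cd68 and Cd14 were called higher in adenoma cells than in epithelium, and none of the other markers was. Their number, 2 of 10, is near the share of all genes called higher in either comparison, so the count is not particular to the markers. Against epithelium in monoculture, where 41.0% of all genes were called (22.5% higher and 18.5% lower), 2 of 10 markers were higher and 1 lower. Cd68 was 2.35 ± 0.25 higher (SE, 5.10-fold, adjusted p = 1.08e-05 in limma) and Cd14 was 1.76 ± 0.25 higher (3.38-fold, adjusted p = 0.00011), each in 4 of 4 animals. Adgre1, whose levels here lay around the 2.67 above which genes were kept, was lower, with a difference of -0.58 ± 0.20 (adjusted p = 0.0347), but P36 at 2.93 came close to the epithelial values of 3.13 and 2.94, and its adjusted p lay between 0.00304 and 0.238 over the alternatives. The call was lost on leaving out adenoma animal P21 (adjusted p = 0.0756), P23 (0.0758) or P34 (0.0742), either epithelial monoculture (0.208 for P28 and 0.0746 for P30), or both cultures of P28 (0.238) or of P30 (0.0946), and with the compared groups alone in the fit (0.078).

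Against co-cultured epithelium, where 33.3% of all genes were called (19.0% higher and 14.3% lower), 2 of 10 markers were higher and 0 lower. Cd68 was 1.32 ± 0.25 higher (2.49-fold, adjusted p = 0.00138 in limma) and Cd14 1.34 ± 0.25 higher (2.53-fold, adjusted p = 0.00127), while Adgre1 differed by 0.03 ± 0.20 (adjusted p = 0.938). Both comparisons share the adenoma samples. Lyz2 missed the threshold in both, at -0.81 ± 0.43 against monoculture (adjusted p = 0.16) and -0.85 ± 0.43 against co-culture (adjusted p = 0.161), and it passed without P23 (-1.11, adjusted p = 0.0342, and -1.15, adjusted p = 0.036). Splitting the adenoma animals by the mark T2 was chosen after the data were seen, so no p-value is given for Lyz2 here. P21 and P23, with T2 in the title, differed in Lyz2 by -0.05 against monoculture and -0.09 against co-culture. P34 and P36, without it, differed by -1.57 and -1.61. The 2 arrays of P34 were themselves at 2.18 and 3.83 for Lyz2. Cd68 and Cd14 passed in both pairs of animals against either epithelial group, while Adgre1 against monoculture passed in P21 and P23 (-0.75, adjusted p = 0.00718) and not in P34 and P36 (-0.41, adjusted p = 0.194). The medians of the 10 markers were -0.13 and 0.11, against -0.03 and 0.01 over all genes.

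No gene of the list of other macrophage genes was called higher in adenoma, as Cd68 and Cd14 were. Over all genes tested, 22.5% were higher and 18.5% lower against monoculture, and 19.0% and 14.3% against co-culture. Ptprc, Csf1r, C1qa, C1qb, C1qc and Tyrobp stayed between 2.79 and 4.20 in all adenoma animals. Of 22 other macrophage genes 0 were higher and 5 lower in each comparison, and the 5 are not far from the share of all genes. The lower ones were Mrc1, Itgam, Mertk, Ctss and Lyve1 (Ctss at 3.60 in adenoma, against 8.61 in epithelium). The list mean was low in both groups, at 3.04 to 3.10 in adenoma and 3.58 to 3.76 in epithelium, which limits what could be seen. Of 16 leukocyte genes 1 was higher in each comparison, with 3 lower against co-culture and 1 lower against monoculture. The higher gene was the actin-bundling gene Lcp1, at 8.83 in adenoma against 6.71 in epithelium. Among the partners of Cd14, Tlr4 was at 6.41 to 6.80 in adenoma against 2.56 to 3.58 in epithelium (3.98 ± 0.24 higher than in monoculture, adjusted p = 1.45e-07), and Ly96, the secreted co-receptor, was at 8.75 to 9.42 against 8.88 to 8.89. The Csf1 gene was also higher in adenoma, at 6.17 against 4.20 (1.96 ± 0.29 above monoculture, adjusted p = 0.000167). Cell cycle genes moved with the same groups, with 10 of 11 higher in adenoma than in each epithelial group, and their part in the Cd68 and Cd14 differences was not tested.

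**Figure D5:**
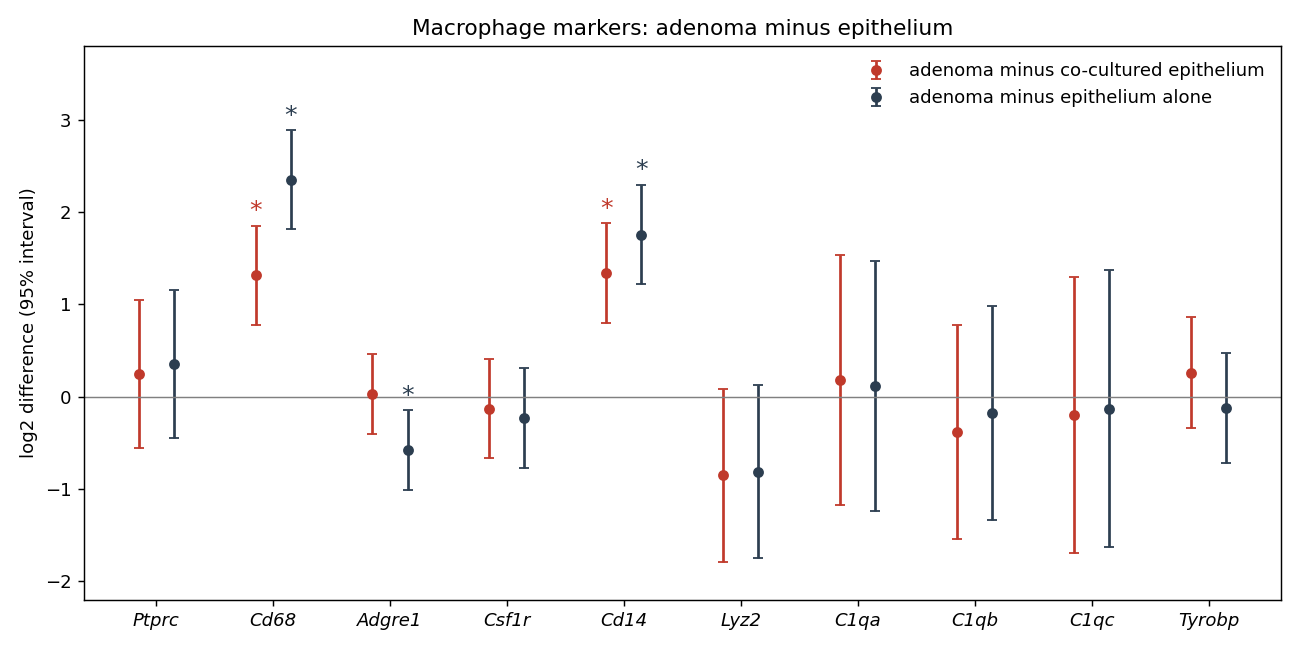
Log2 difference between adenoma and co-cultured epithelium (red) and between adenoma and epithelium alone (dark blue) for each macrophage marker (horizontal axis), with the 95% interval of limma (n = 4 adenoma animals against 2 and 2). Asterisks mark an adjusted p under 0.05. Cd68 and Cd14 lie above 0 in both comparisons, and Adgre1 lies below 0 against epithelium alone.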

How the data were processed

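The deposited values were log2 probe set levels. The authors used RMA, per the submitters' processing notes, which give no version. RMA makes arrays alike in distribution and compresses low values towards a floor. The library file of the array, and its build, were not given in the sources used here. As the labels' protocols state, 150 ng of RNA was amplified, biotin-labelled and hybridised on 1-colour whole-transcript arrays. Medians of the arrays were 3.48 to 3.58, and their number limits the precision.

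The platform annotation named the 41345 probe sets (23521 with 1 symbol, 1814 with several, 16010 unnamed here, 0 symbols changed through gene identifiers). Of several probe sets of a gene, that with the highest mean was read. Tested were genes whose highest group mean exceeded percentile 30 of the means of probe sets (2.67), 18095 in all, and 4085 were left out. The 2 arrays of P21 and of P34 were averaged first (SD of their difference over probe sets 0.42 and 0.43), which left 14 samples of 9 animals.

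limma 3.58.1 in R 4.3.3 fitted 1 mean per group with a shared spread, 2-sided, with Benjamini-Hochberg adjustment over all genes tested and a call at an adjusted p under 0.05. The functions were tested on simulated data. Each animal gave both cultures, per the labels. Deviations from the group means correlated across genes at 0.62, 0.51 and 0.79 within Pl_I, Pl_II and Pl_III, and at 0.33 in epithelium, where with 2 pairs both give the same value. The animal was therefore a replicate block in an alternative. Other alternatives were no filter or a 50th percentile filter, the compared groups alone, cyclic loess, a trended robust prior, the mean of all probe sets, single adenoma arrays, an adjusted p under 0.1, leaving out each sample or animal, and the adenoma animals with and without T2 in the title apart.

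The 10 markers, the 19 other lists and the tests were chosen with earlier results of these data known. Named were the 10 markers, up to 4 genes of each list with the highest fibroblast mean, Xist, Eif2s3y and Lyz1, the 8 genes most alike, and genes called in fibroblasts; other genes were named after their values were seen.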

Additional observations from a re-analysis of the deposited data

Results flagged for a closer look

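Adgre1 in adenoma animal P36 was at 2.93, apart from the other 3 adenoma animals at 2.29 to 2.33. Its gap to the nearest of them exceeded Dixon's critical value for 4 samples, which chance does in about 1 of 20 groups. The 2 arrays of P34 were at 1.97 and 2.68, so arrays of 1 animal differed by as much.

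Tyrobp was higher in co-culture in 3 of 3 fibroblast animals and lower in 2 of 2 epithelial animals. The difference between the responses was 0.72 ± 0.41 (SE) on the log2 scale and did not pass the interaction test (adjusted p = 0.519 in limma).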

How the results depend on the processing

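All 10 markers lay above every other sample in the fibroblast cultures under cyclic loess too. The mean of all probe sets and leaving out a fibroblast animal could not change this. Each marker has 1 probe set, and fewer fibroblast cultures cannot narrow the gap. In fibroblast co-culture 0 of 10 were called under each of 18 alternatives. The only call in fibroblasts was lost (0 genes) with the compared groups alone, with the replicate block, with the trended robust prior and with single adenoma arrays, and leaving out samples gave 0 to 1. In epithelium, genes called were 0 with the compared groups alone, 1922 with the replicate block, 1196 at an adjusted p under 0.1 and 49 to 389 on leaving out samples, with 1 marker (Cd68) called under the block and at the looser threshold. The interaction called 862 with the block, 448 at the looser threshold and 26 to 176 on leaving out samples. Adenoma minus co-cultured epithelium called 3667 to 5814 on leaving out samples. The Adgre1 call in adenoma minus monoculture was lost with the compared groups alone. The replicate block changed no other call among the markers.

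The median of the markers ran, on leaving out samples, between -0.24 and 0.26 in fibroblasts, -0.028 and 0.16 in epithelium, -0.39 and 0.25 for the interaction, -0.14 and -0.0002 for adenoma minus monoculture, and -0.046 and 0.16 for adenoma minus co-culture. Under cyclic loess it was -0.26 and -0.084 for those adenoma comparisons. Signs turned for C1qb in fibroblasts (-0.00067) and Adgre1 in adenoma minus co-culture (-0.15) under cyclic loess, and for Adgre1 there with single adenoma arrays (-0.070). On leaving out samples, fibroblast differences ran between -0.57 and 0.17 for Ptprc, -0.034 and 0.27 for Cd68, -0.12 and 0.23 for Adgre1, -0.011 and 0.37 for Cd14, -0.045 and 0.15 for Lyz2, -0.57 and 0.74 for C1qa, -0.55 and 0.58 for C1qb, and -0.74 and 0.70 for C1qc, and between -0.13 and 0.087 for Adgre1 in adenoma minus co-culture. The cause of these changes was not tested. Where 1 sample was left in a group, it was assumed to vary like the other groups. A fixed block could not be fitted for the adenoma comparisons, so a random one (consensus correlation 0.46) was chosen after seeing the data. Keeping only the adenoma animals with T2 in the title, also chosen then, gave a median of -0.026 and turned Adgre1 (-0.14) in adenoma minus co-culture. Levels near the floor limit what could be seen outside the fibroblasts.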
